A study of Bos taurus with 28 samples.

Results

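The enzymes described here are those that the liver uses to oxidize and conjugate drugs and steroids: cytochromes P450 of families CYP1 to CYP4, flavin-containing monooxygenases (FMO), carboxylesterase (CES), aldo-keto reductases of the AKR1C family, UDP-glucuronosyltransferases (UGT), sulfotransferases (SULT), and cytosolic (GST) and microsomal (MGST) glutathione S-transferases. They were chosen by gene symbol alone, from probe sets that the array annotation pairs with exactly 1 symbol. This gave 38 genes, measured by 63 probe sets, of 9155 genes and 13292 probe sets with a single symbol. Where a gene had several probe sets (12 genes), the one with the highest mean log2 signal stood for it.

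Liver biopsies came from female Holstein cows that were dry (non-lactating) and ovariectomized, and mRNA was hybridized to Affymetrix bovine GeneChips. The 28 arrays fall into 4 groups of 7: no hormone (CO), an ear implant that released estradiol-17β (E2T), a vaginal device that delivered progesterone (P4T), and both devices together (E2P4T), each for 14 days. Every group, CO included, had lost its ovaries, so CO stands for a cow without ovarian steroids and not for an intact cow. In the Latin square of the study each cow passed through every treatment, so the groups share animals. The labels give neither cow nor period, and the p-values treat the arrays as separate animals. How precise a value can be is limited by how many arrays there are. The sample names call the progesterone exposure intradermal, whereas the treatment protocol gives the vaginal route. The ages of the cows are not given in the sources used here.

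Hepatic clearance of lipophilic compounds runs in phases. P450s and FMOs introduce or expose a polar group, and UGTs, SULTs and GSTs then attach glucuronic acid, sulfate or glutathione so that the product can leave in bile or urine. Estradiol is itself a substrate of this system: P450s hydroxylate it, SULT1E1 sulfates it with high affinity and UGTs glucuronidate it, while AKR1C enzymes and P450s of the CYP2C and CYP3A subfamilies reduce or hydroxylate progesterone. The comparison of each treatment with CO asks whether the mRNAs of these enzymes differed after exposure to the hormones that they help to remove.

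Before the treatments could be compared, 2 libraries had to be set apart, as the plot of all members on all arrays shows. On the array labelled E2P4T replication 5, 28 of the 38 members lay below the lowest of the other 26 arrays. Within their range lay 8, and 2 (FMO2 and SULT4A1) lay above it. Of all probe sets tested, 14.2% lay below that range and 40.1% above it. The median member was 2.86 log2 units below its median on the 26 arrays, whereas the median of all probe sets tested was 0.67 above. CYP2C23 read 7.39 there against 14.98 to 16.09 elsewhere, CYP2E1 9.3 against 15.43 to 16.8, CYP3A28 9.89 against 14.55 to 15.82, and UGT2B10 3.97 against 11.1 to 13.4. The members that stayed within the range of the other arrays were CYP2S1, CYP4A11, CYP4A22, CYP4B1, GSTO1, GSTT1, MGST3 and SULT1E1.

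The liver label of this array was checked against markers. The mean of 20 hepatocyte genes was 10.18 there and 14.8 to 15.74 on the 26 arrays, with 18 of the 20 below all of them. Albumin (ALB) read 12.06 against 16.57 to 18.16. The mean of 12 kidney tubule and glomerulus genes was 10.77 against 4.82 to 7.68, with 11 of the 12 above all 26 arrays, among them the tubule cadherin CDH16 at 14.42 against 3.95 to 8.75. The mean of 5 cholangiocyte genes was 11.99 against 7.19 to 9, with the secreted phosphoprotein SPP1 at 15 against at most 7.22. The markers of this library therefore go against its liver label, and it is called below the library labelled E2P4T 5. Over the remaining arrays the hepatocyte mean kept within 14.8 to 15.74.

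P4T replication 4 (P4T 4) stood apart in another way. Of the members, 18 lay below the 26 arrays, 17 within and 3 above (AKR1C4, CYP4B1 and SULT4A1), and the median member was 0.95 below. Of all probe sets tested, 12.9% lay below and 31.2% above, and their median was 0.55 above. CYP1A2 read 5.88 against 10.11 to 14.81, SULT1B1 6.43 against 8.01 to 11.86, and MGST1 11.18 against 12.48 to 15.31, while AKR1C4 reached 18.26. Its hepatocyte mean, 15.2, was within the range of the 26 arrays, with 3 of the 20 genes above all of them and 5 below. Its means of adipocyte genes (7.65 against at most 6.53) and muscle genes (10.17 against at most 10) were above those of the 26 arrays. Only 2 of the 3 adipocyte genes and 1 of the 4 muscle genes lay above all of them. CKM (10.42) and MYH7 (12.95), the muscle genes with the highest signal, lay within their range. The part of other cells in the values of P4T 4 was not tested. The hybridisation spikes, RNAs of known amount added to every sample, averaged 17.31 on P4T 4 and 18.27 on the library labelled E2P4T 5, against 12.95 to 16.26 on the others. All 38 members passed the filter on low signals, but FMO2 and SULT4A1 did so only through the library labelled E2P4T 5. Counts are given with 28 arrays and with the 26 that remain (7 CO, 7 E2T, 6 P4T and 6 E2P4T), and single differences with 26 arrays unless 28 are stated.

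**Figure D1:**
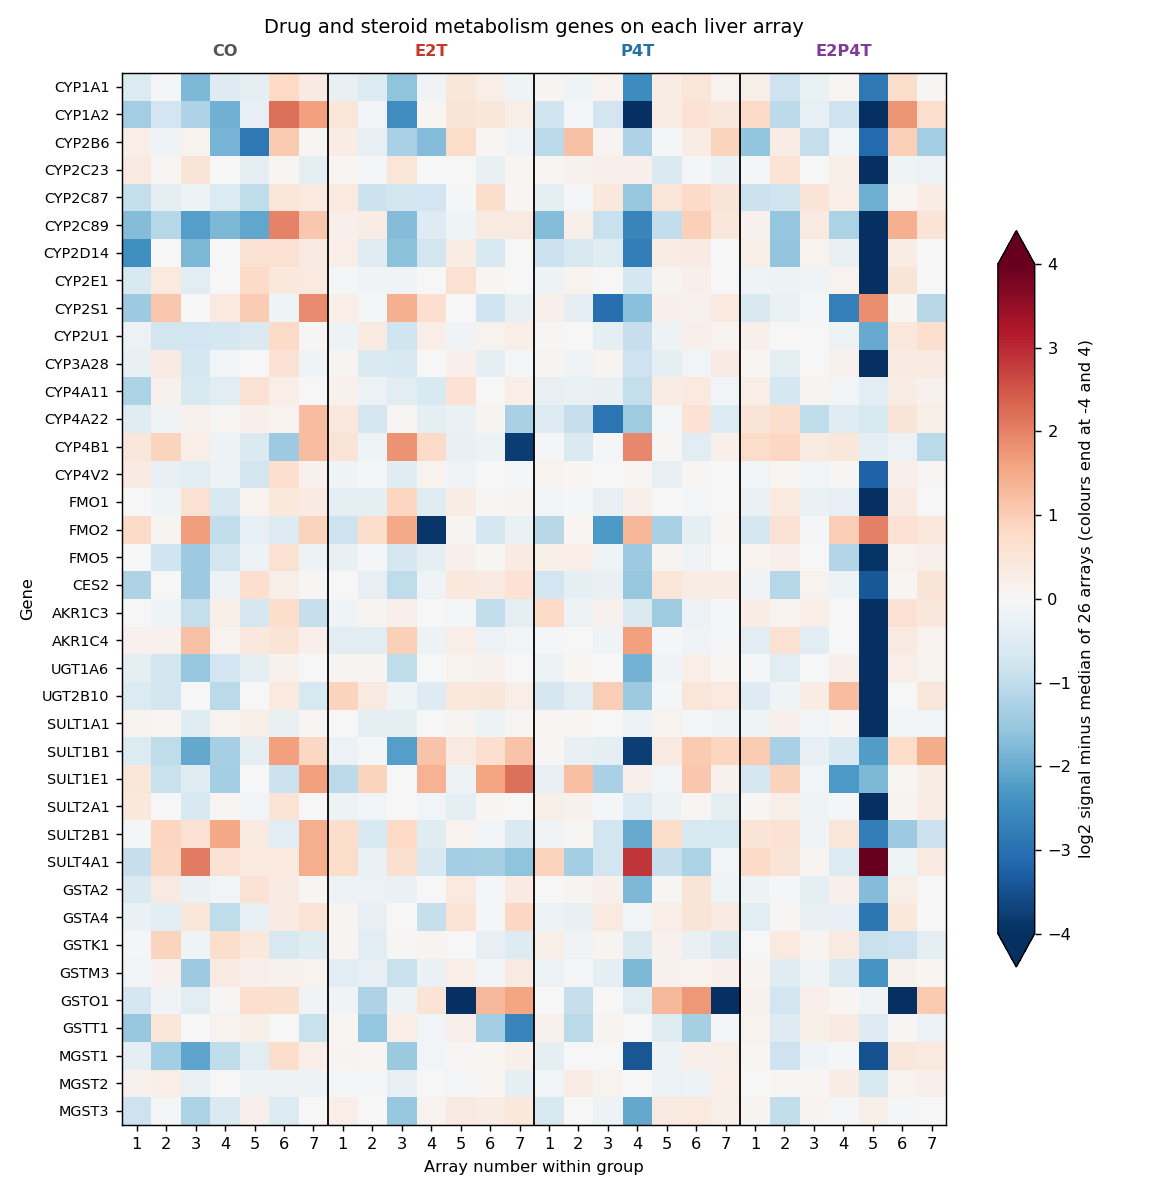
Each row is 1 of the 38 genes and each column 1 of the 28 arrays, by group and replication number; colour is the log2 signal minus the gene's median over 26 arrays. The column of E2P4T number 5 is blue for 28 genes that lie below all of the 26 arrays (14.2% of all probe sets do). P4T number 4 is blue for 18 (12.9% of all probe sets), and GSTO1 is dark blue on 1 array of each treated group.

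With 28 arrays, no member differed between the groups after adjustment over the 18775 probe sets tested (limma, Benjamini-Hochberg adjusted p under 0.05), and neither did any other probe set (0%). This held with 26 arrays as well (0%). The smallest adjusted p of a member in a contrast with CO was 0.87 with 28 arrays and 0.44 with 26. Because these arrays can miss moderate differences, the values and intervals are given in place of calls.

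At an unadjusted p under 0.05, the F test over the treatments passed for 0 of the 38 members with 28 arrays (2.14% of all probe sets) and for 0 with 26 arrays (5.7%). With 28 arrays, E2T gave 0 members higher (1.45% of all probe sets) and 0 lower (3.98%). P4T gave 0 higher (0.943%) and 2 lower (1.84%), CYP4A22 and SULT2B1. E2P4T gave 0 higher (2.17%) and 1 lower (2.74%), SULT2B1. Both CYP4A22 and SULT2B1 passed the filter on low signals only through CO arrays. With 38 members, 1 gene is 2.63%, so these counts lie near the background.

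With 26 arrays, E2T gave 2 members higher (3.03% of all probe sets), UGT1A6 and UGT2B10, and 0 lower (7.2%). P4T gave 2 higher (2.39%), CYP2C87 and UGT1A6, and 3 lower (5.81%), AKR1C4, CYP4A22 and SULT2B1. E2P4T gave 3 higher (2.99%), CYP2U1, UGT1A6 and UGT2B10, and 1 lower (6.51%), CYP2S1. The 3 contrasts share the same CO arrays, so a gene that appears in several of them is not counted as repeated evidence. Each of these differences lost an unadjusted p under 0.05 when some single further array was left out. The counts moved with single arrays: without CO 6 as well, 9 members passed in P4T and 9 in E2P4T, and without E2T 3, 8 passed in E2T. CYP4A22, SULT2B1, CYP2U1 and CYP2S1 are named because they are in these counts, after their values were seen. Among the 26 arrays, CYP4A22, CYP2S1 and SULT2B1 reached the filter's signal of 350 only on CO arrays. A value lower than CO was thus favoured in advance for these genes.

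The direction of the members against CO depended on the 2 arrays in the combined treatment. With 28 arrays, 28 of 38 members were lower in E2P4T than in CO and the median log2 fold change was -0.31 (all probe sets, -0.02). With 26 arrays 14 of 38 were lower and the median was 0.1 (all probe sets, -0.09). The members that the 28-array fit placed lowest in E2P4T included CYP2C23 (-1.15 ± 0.76, SE), CYP2E1 (-1.08 ± 0.65), AKR1C4 (-0.98 ± 0.51), FMO1 (-0.96 ± 0.58), SULT2A1 (-0.75 ± 0.53) and SULT1A1 (-0.71 ± 0.47), each with a limma adjusted p of 0.93. With 26 arrays they were at 0.02, -0.11, -0.36, -0.11, 0.03 and -0.02. SULT2B1 (-1.14 ± 0.47), CYP2S1 (-0.81 ± 0.60) and CYP1A2 (-0.78 ± 1.08) were also among the lowest with 28 arrays. With 26 arrays these were at -0.77, -1.18 and 0.42, so SULT2B1 and CYP2S1 stayed low. The median was -0.03 in E2T with either set, and in P4T it was 0 with 28 arrays and 0.08 with 26. The median standard error of a member was 0.52 with 28 arrays and 0.26 to 0.27 with 26.

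**Figure D2:**
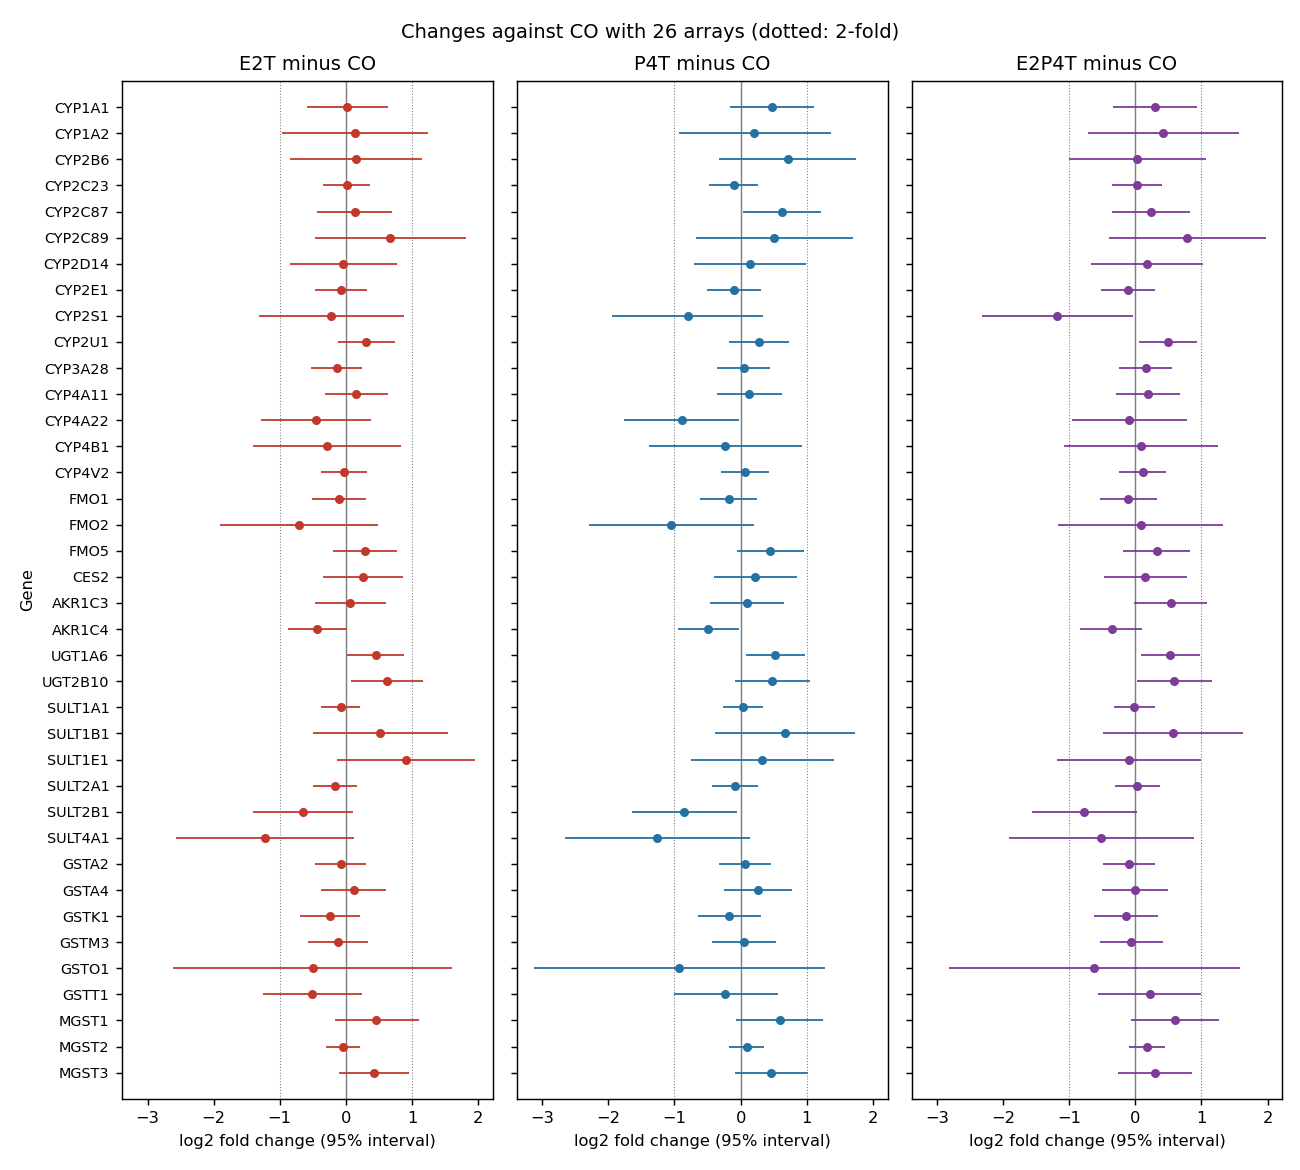
Points are the log2 fold changes of each gene against CO in the fit of 26 arrays, bars are 95% intervals and dotted lines mark 2-fold. Intervals of UGT1A6 lie above 0 in all panels, 23, 20 and 23 of the 38 intervals lie within 2-fold (E2T, P4T, E2P4T), and GSTO1, SULT4A1 and FMO2 have the widest bars.

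Among the P450s, those with the highest mean signal of the CYP2, CYP3 and CYP4 families differed from CO by less than their standard errors with 26 arrays. CYP2E1, which oxidizes ethanol and other small molecules, had log2 signals of 15.43 to 16.8 on the CO arrays (median 16.44), 15.9 to 16.67 with E2T (median 16.05), 15.35 to 16.25 with P4T (median 16.04) and 9.3 to 16.56 with E2P4T (median 15.9). Apart from the library labelled E2P4T 5 the groups overlapped. With 26 arrays the 95% intervals of its log2 fold change were -0.47 to 0.32 in E2T, -0.51 to 0.31 in P4T and -0.52 to 0.3 in E2P4T, so a 2-fold change lay outside each of them.

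CYP3A28, a bovine member of the subfamily that hydroxylates steroids and many drugs, spanned 14.55 to 15.82 in CO (median 15.15), 14.65 to 15.45 in E2T (median 15.16), 14.41 to 15.56 in P4T (median 15.15) and 9.89 to 15.62 in E2P4T (median 15.31). The medians of the 4 groups thus ran from 15.15 to 15.31. Its log2 fold change in E2P4T was -0.62 ± 0.54 (SE) with 28 arrays and 0.16 ± 0.19 with 26, so the sign turned when the 2 libraries were left out. In E2T and P4T it was -0.14 ± 0.19 and 0.05 ± 0.19 with 26 arrays. The highest-signal member of the CYP4 family, CYP4V2, a fatty acid hydroxylase, had 26-array differences from CO of -0.03, 0.07 and 0.11, given here and below in the order E2T, P4T, E2P4T, each with an SE of 0.17 to 0.18.

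Of the CYP2C genes, whose products hydroxylate drugs, steroids and arachidonic acid, CYP2C23 had 26-array differences of 0.01, -0.1 and 0.02 (SE 0.18). CYP2C87 was measured at 10.11 to 11.62 in CO (median 10.76), 10.28 to 11.84 in E2T (median 11.05), 9.61 to 11.92 in P4T (median 11.56) and 9.2 to 11.65 in E2P4T (median 11.21). The groups overlapped, and 5 of the 6 retained P4T arrays were above the CO mean. Its P4T difference was 0.62 ± 0.29 with 26 arrays (95% interval 0.04 to 1.21, limma adjusted p = 0.60) and 0.36 ± 0.36 with 28. CYP2C89 had 26-array differences of 0.67, 0.51 and 0.78, each with an SE of 0.56 to 0.58. With 28 arrays they were 0.67, 0.18 and -0.25 (SE 0.87).

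CYP1A1 and CYP1A2, neighbours in the genome, are induced through the aryl hydrocarbon receptor and hydroxylate estradiol. CYP1A2 ranged from 10.69 to 14.81 in CO (median 11.83), 10.11 to 13.12 in E2T (median 12.82), 5.88 to 13.19 in P4T (median 12.53) and 4.36 to 14.36 in E2P4T (median 12.26). Within CO alone it therefore spanned over 4 log2 units, with CO 6 (14.81) and CO 7 (14.24) above the other 5 (10.69 to 12.26). CYP2C89 had the same pair of high CO arrays, 14.75 and 13.85 against 10.56 to 11.64. The 26-array differences of CYP1A2 were 0.14 ± 0.54, 0.21 ± 0.56 and 0.42 ± 0.56, which with 28 arrays were 0.14, -0.74 and -0.78 (SE 1.08). Those of CYP1A1 were 0.02 ± 0.30, 0.47 ± 0.31 and 0.30 ± 0.31. Another tested probe set of CYP1A1, with a mean log2 signal of 7.06, gave -0.69, -0.54 and 0 (SE 0.47 to 0.49).

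Besides CYP2C87, the P450s with an unadjusted p under 0.05 in a contrast were CYP4A22, CYP2U1 and CYP2S1. CYP4A22, a fatty acid ω-hydroxylase, read 7.09 to 8.82 in CO (median 7.71) and 4.64 to 8.15 in P4T (median 7.04), a difference with a 95% interval of -1.87 to -0.12 with 28 arrays and -1.77 to -0.02 with 26. Its 26-array E2P4T difference was -0.09 ± 0.43, and the interaction of the hormones, the E2P4T value beyond the sum of both single treatments, was 1.26 ± 0.60 (95% interval 0.03 to 2.49, limma adjusted p = 0.98). P4T 3, at 4.64, was the lowest array of this gene, and without it the P4T difference was -0.45, with an unadjusted p no longer under 0.05. CYP4A22 passed the filter only through CO 7 (8.82), an array of the group in which it read higher. CYP2U1, another fatty acid hydroxylase, read 11.15 to 12.69 in CO (median 11.34) and 11.72 to 12.6 on the 6 retained E2P4T arrays (median 12.02), which were all above the CO mean. The difference was 0.49 ± 0.22 (95% interval 0.05 to 0.94, limma adjusted p = 0.52). CYP2S1 reached at most 8.8 on any array, and its E2P4T difference was -1.18 ± 0.56 with 26 arrays (limma adjusted p = 0.52) and -0.81 ± 0.60 with 28. It passed the filter only through CO 7 (8.8) and the library labelled E2P4T 5 (8.76). Among the 26 arrays it thus passed through a CO array alone, which favoured a value lower than CO.

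Among the other phase I enzymes, FMO1, which oxygenates soft nucleophiles such as amines and sulfides, had 26-array differences of -0.10, -0.18 and -0.11 (SE 0.20 to 0.21). CES2, an esterase that activates and clears ester drugs, had 0.26, 0.22 and 0.15 (SE 0.30 to 0.31). These differences were within their errors. FMO2 had an interaction of 1.84 ± 0.87 with 26 arrays (95% interval 0.08 to 3.61, limma adjusted p = 0.98). However, it passed the filter only through the library labelled E2P4T 5 (8.57), which was then left out.

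AKR1C3 and AKR1C4 lie side by side in the genome and encode ketosteroid reductases. AKR1C4 ranged from 16.77 to 17.8 in CO (median 16.82), 16.19 to 17.58 in E2T (median 16.41), 16.47 to 18.26 in P4T (median 16.54) and 12.36 to 17.23 in E2P4T (median 16.62). Every retained P4T array (16.47 to 16.61) lay below every CO array, as for no other member in this contrast (0.16% of all probe sets did not overlap). The 26-array difference was -0.49 ± 0.23 in P4T (95% interval -0.95 to -0.02, limma adjusted p = 0.60), -0.43 ± 0.22 in E2T and -0.36 ± 0.23 in E2P4T. With 28 arrays the P4T difference was -0.24 ± 0.51, since P4T 4 was the highest of all 28. Another probe set of AKR1C4 gave -0.42, -0.43 and -0.39 with 26 arrays, whereas the differences of the other 4 ran from -0.28 to 0.42. AKR1C3 differed from CO by 0.07 ± 0.26, 0.09 ± 0.27 and 0.54 ± 0.27 with 26 arrays, and in E2P4T by -0.24 ± 0.55 with 28. All 6 retained E2P4T arrays were above the CO mean of AKR1C3 (95% interval of the difference -0.02 to 1.09, limma adjusted p = 0.53). The AKR1C paralogs are alike in sequence, and whether a probe set also reads its neighbour's transcript was not tested.

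The conjugating enzyme UGT1A6, which glucuronidates phenols, had a higher mean in each treatment than in CO once the 2 libraries were left out. It read 13.58 to 15.29 in CO (median 14.72), 14.1 to 15.29 in E2T (median 15.21), 13.22 to 15.36 in P4T (median 15.11) and 10.73 to 15.38 in E2P4T (median 15.08). The groups overlapped at their upper ends, and the lower CO arrays made the difference: 6 of 7 E2T arrays, 6 of 6 retained P4T arrays and 6 of 6 retained E2P4T arrays were above the CO mean. With 26 arrays the log2 fold changes were 0.45 ± 0.21 for E2T (95% interval 0.02 to 0.88), 0.52 ± 0.22 for P4T (0.08 to 0.97) and 0.53 ± 0.22 for E2P4T (0.09 to 0.98). Their limma adjusted p-values were 0.47, 0.60 and 0.51. With 28 arrays they were 0.45 ± 0.48, 0.25 ± 0.48 and -0.09 ± 0.48. No direct contrast between treatments exceeded 0.08 in size with 26 arrays. The bovine UGT1A genes share exons, so that the probe set may read further transcripts of the locus.

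UGT2B10, of the subfamily that glucuronidates steroids and bile acids, read 11.1 to 12.56 in CO (median 11.63), 11.67 to 13.08 in E2T (median 12.55), 10.74 to 13.15 in P4T (median 12.12) and 3.97 to 13.4 in E2P4T (median 12.18). Groups overlapped, with 6 of 7 E2T and 5 of 6 retained E2P4T arrays above the CO mean. The 26-array differences were 0.62 ± 0.27 (95% interval 0.08 to 1.16), 0.48 ± 0.28 (-0.08 to 1.05) and 0.59 ± 0.28 (0.03 to 1.16). Their limma adjusted p-values were 0.44, 0.62 and 0.52. With 28 arrays they were 0.62 ± 0.80, 0.26 ± 0.80 and -0.61 ± 0.80. Over the same 26 arrays the 20 hepatocyte markers had median differences of -0.18, -0.24 and -0.25 (all probe sets, -0.1, -0.09 and -0.09). The part of hepatocyte content in the UGT values was not tested. In bulk tissue, fewer cells of a type and less RNA per cell cannot be told apart.

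**Figure D3:**
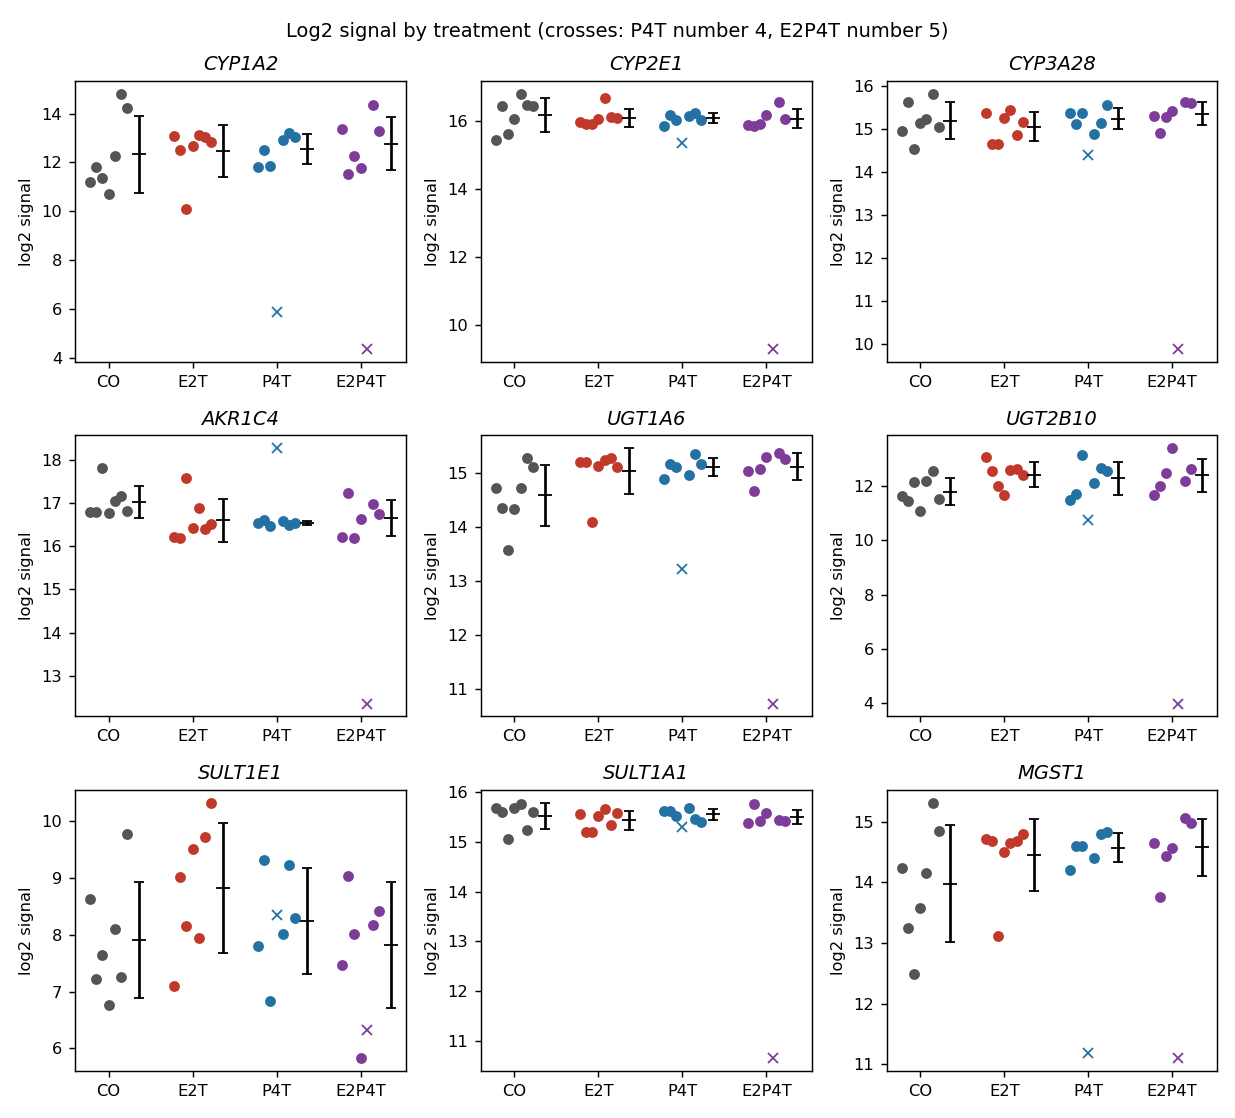
Log2 signal (y axis, a separate scale for each gene) of 9 genes on every array, by group; crosses are P4T number 4 and E2P4T number 5, and black bars are the mean ± SD of the other arrays. For UGT1A6 the retained P4T and E2P4T arrays sit at 14.68 to 15.38, while CO reaches down to 13.58, and for AKR1C4 the retained P4T arrays sit at 16.47 to 16.61, below all CO arrays.

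The sulfotransferases differed from CO in no common direction. SULT1E1, the estrogen sulfotransferase, read 6.77 to 9.77 in CO (median 7.65), 7.09 to 10.32 in E2T (median 9.02), 6.83 to 9.32 in P4T (median 8.29) and 5.83 to 9.04 in E2P4T (median 8.02). The E2T median was the highest of the 4 although the groups overlapped, and 6 of 7 E2T arrays were above the CO mean. The E2T difference from CO was 0.91 ± 0.51 with 26 arrays (95% interval -0.14 to 1.95, limma adjusted p = 0.53). E2P4T differed from E2T by -1.21 ± 0.52 with 28 arrays (95% interval -2.28 to -0.14) and by -1 ± 0.53 with 26 (-2.08 to 0.09), with limma adjusted p = 1 in both. The interaction was -1.56 ± 0.74 with 28 arrays (95% interval -3.07 to -0.05, limma adjusted p = 1) and -1.33 ± 0.75 with 26 (-2.87 to 0.21, adjusted p = 0.98).

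SULT1A1, which sulfates phenols and estrogens, and SULT2A1, which sulfates hydroxysteroids and bile acids, varied little. With 26 arrays SULT1A1 differed from CO by -0.08 ± 0.14, 0.03 ± 0.15 and -0.02 ± 0.15, and SULT2A1 by -0.16 ± 0.16, -0.08 ± 0.17 and 0.03 ± 0.17. All 6 intervals lay within 2-fold. Another probe set of SULT2A1, with a mean log2 signal of 8.49, gave -0.65, -0.68 and -0.26 (SE 0.43 to 0.45). SULT2B1, a cholesterol sulfotransferase, had log2 signals of 7.08 to 9.09 in CO (median 8.15), 6.92 to 8.32 in E2T (median 7.43), 5.53 to 8.25 in P4T (median 6.92) and 4.78 to 8.12 in E2P4T (median 7.39). All 6 retained E2P4T arrays, and 5 of 6 P4T arrays, were below the CO mean. Its differences were -0.65 ± 0.47, -1.10 ± 0.47 and -1.14 ± 0.47 with 28 arrays, and -0.65 ± 0.37, -0.85 ± 0.39 and -0.77 ± 0.39 with 26. The 95% interval excluded 0 for P4T in both fits and for E2P4T with 28 arrays, and the smallest limma adjusted p was 0.53. SULT2B1 passed the filter only through CO 4 (9.09) and CO 7 (8.99), arrays of the group in which it read highest.

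Of the glutathione transferases, GSTA2, an alpha-class enzyme, differed from CO by -0.08, 0.06 and -0.09 with 26 arrays (SE 0.19). Another of its probe sets gave 0.42, 0.49 and 0.34 (SE 0.33 to 0.34), and the remaining ones ran from -0.18 to 0.08. MGST1, which conjugates glutathione in the membranes of the endoplasmic reticulum and mitochondria, read 12.48 to 15.31 in CO (median 14.15), 13.11 to 14.79 in E2T (median 14.68), 11.18 to 14.83 in P4T (median 14.59) and 11.1 to 15.06 in E2P4T (median 14.56). The treated medians were close together. The 26-array differences were 0.46 ± 0.31, 0.59 ± 0.32 and 0.60 ± 0.32, all with 95% intervals that spanned 0, and with 6 of 7, 6 of 6 and 5 of 6 arrays above the CO mean. With 28 arrays they were 0.46, 0.11 and 0.10 (SE 0.53).

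GSTO1, an omega-class enzyme, had a pattern that no group mean describes; it is named after its values were seen. In CO all 7 arrays lay between 10.06 and 11.39. In E2T, P4T and E2P4T a single array of each was far below the rest: E2T 5 at 5.41, P4T 7 at 3.07 and E2P4T 6 at 6.35. All the other treated arrays lay between 9.5 and 12.46. E2T 5 was the lowest or highest of the 26 arrays for 0 members, P4T 7 for 1 and E2P4T 6 for 3. The standard errors of GSTO1 (1.04 to 1.08) were the largest of all members with 26 arrays.

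Technical signals moved with some of these genes. Among the 26 arrays the spikes were highest on CO 3 (16.26), E2T 3 (15.42) and E2P4T 2 (14.9). AKR1C4 was highest on the same arrays, at 17.8, 17.58 and 17.23. UGT1A6 read 13.58, 14.1 and 14.68 there and MGST1 12.48, 13.11 and 13.76, and CO 3 was the lowest of the 26 arrays for both. The mean of the spikes was 14.56 in CO, 13.94 in E2T, and 13.76 and 13.9 on the retained P4T and E2P4T arrays. The part of this signal in the differences of UGT1A6, MGST1 and AKR1C4 was not tested. Without CO 3 alone, the 26-array differences of UGT1A6 became 0.28, 0.36 and 0.37, none with an unadjusted p under 0.05. When CO 3 and E2T 3 were left out as well (24 arrays, chosen after seeing the data), UGT1A6 differed from CO by 0.44 ± 0.16, 0.36 ± 0.16 and 0.37 ± 0.16 (unadjusted p-values under 0.05), UGT2B10 by 0.74, 0.54 and 0.65, MGST1 by 0.44, 0.34 and 0.35, and AKR1C4 by -0.46, -0.36 and -0.23. The actin probe sets for the 3′ and 5′ ends of the mRNA, a sign of RNA quality, were furthest apart on E2T 5 (3′ minus 5′ 6.48 log2 units), CO 6 (5.66), P4T 7 (5.57) and P4T 3 (5.09). Of the low GSTO1 arrays, E2T 5 and P4T 7 are among these, and E2P4T 6 was at 2.74. P4T 3 was the lowest array of CYP4A22. The part of RNA quality in these values was not tested.

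**Figure D4:**
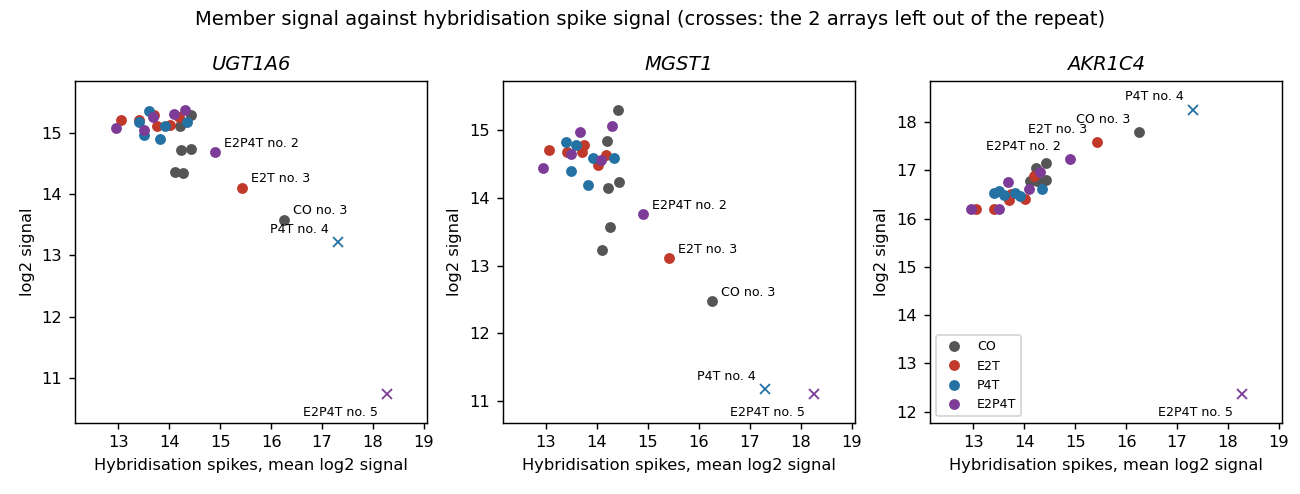
Mean log2 signal of the hybridisation spikes (x axis) against the log2 signal of 3 genes (y axes), 1 point per array, coloured by group. The arrays with the highest spikes, CO number 3 (16.26) and E2T number 3 (15.42) among the retained ones, have the lowest UGT1A6 of the retained arrays, MGST1 at 12.48 and 13.11, and the highest AKR1C4.

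The CO arrays were also the most spread of the 26. Here 21 of 38 members (55.3%) had their largest SD in CO, beside 52.7% of all probe sets tested. The median SD of a member was 0.61 among CO arrays, against 0.56 (E2T), 0.33 (P4T) and 0.47 (E2P4T). CO 3 was the lowest of the 26 arrays for 10 members and CO 6 the highest for 11. Without these 2 arrays, CO had the largest SD for 13 members.

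The genes that serve these enzymes were described by 5 lists, none of which had a gene with an adjusted p under 0.05. Of the redox partners and companion oxidoreductases, 24 genes were tested. NQO1, a quinone reductase, had an E2P4T difference of 0.78 ± 0.34 with 28 arrays and 0.69 ± 0.29 with 26 (limma adjusted p = 0.93 and 0.52), and is named after its values were seen. On the library labelled E2P4T 5 it read 12.12, above the 26 arrays (10.11 to 12.08). With 26 arrays the medians of this list were 0.05, 0.17 and 0.09 (all probe sets, -0.1, -0.09 and -0.09).

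Of 17 tested factors that sense xenobiotics and steroids, 2 had an unadjusted F test p under 0.05 in a fit (over all probe sets, 2.14% with 28 arrays and 5.7% with 26). STAT5B, which relays growth hormone signals to sex-dependent hepatic P450s in rodents, differed from CO by -0.51 ± 0.28, -0.76 ± 0.29 and -0.88 ± 0.29 with 26 arrays, and by -0.51, -0.65 and -0.82 with 28, and passed the F test in both. PGR, the progesterone receptor, reached at most 8.07 on the 26 arrays and differed by -1.02 ± 0.50, -1.35 ± 0.52 and -1.24 ± 0.52 with 26 arrays, the fit in which it passed. That maximum is below the filter, which PGR reached on the library labelled E2P4T 5 (8.81), left out of that fit. The smallest limma adjusted p against CO was 0.49 for either gene.

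Of 16 tested genes of cofactor supply and other conjugation, SLC35B2, which carries the sulfate donor PAPS into the Golgi, differed by -0.42, -0.38 and -0.43 (SE 0.17) and SULF2, an extracellular sulfatase, by 1, 1.43 and -0.07 (SE 0.57 to 0.59) with 26 arrays, and both passed the F test unadjusted. SULF2 stayed below the filter on the 26 arrays (at most 7.41) and on the library labelled E2P4T 5 (8.32). It was thus tested only through P4T 4, which was then left out. UGDH, which makes UDP-glucuronic acid for the UGTs, is named after its values were seen. It differed by 0.65 ± 0.29, 0.50 ± 0.30 and 0.56 ± 0.30 with 26 arrays and by 0.65, 0.15 and -0.03 (SE 0.52) with 28. Its unadjusted F test p was 0.137 with 26 arrays and 0.536 with 28. In E2T with 26 arrays NAT1 was also higher (0.51 ± 0.18) and MAT1A lower (-0.54 ± 0.26), both at an unadjusted p under 0.05. Among 22 tested genes of other steroid metabolism, DHRS9, a retinol and 3α-hydroxysteroid dehydrogenase, had a P4T difference of -1.44 ± 0.59 with 28 arrays. Its unadjusted F test p was under 0.05 there and 0.0724 with 26 arrays, where the difference was -1.46 ± 0.59. DHRS9 reached at most 8.74 on the 26 arrays, near the filter. By the group means and SDs, only CO arrays among these could reach the filter, which favoured a value lower than CO. Of 12 tested transporters of drugs and conjugates, 0 passed at p under 0.05 with 28 arrays, and with 26 arrays only the uptake transporter SLCO2B1 did, at 0.56 ± 0.26 with E2T (limma adjusted p = 0.47), in a contrast where 10.2% of all probe sets passed.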

How the data were processed

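The arrays are Affymetrix bovine GeneChips with biotin-labelled cRNA, and the authors deposited 1 table of linear signal intensities from MAS5, scaled within each array and without detection calls. The study left out an array of P4T and one of E2P4T, which the sources used here do not name. The log2 of the signal was taken with no further scaling, and 18775 of 24016 probe sets other than controls whose highest signal was at least 350 were tested. The 4 groups were fitted together with limma 3.58.1 under R 4.3.3 (moderated variances with a trend on the mean signal), with Benjamini-Hochberg adjustment over all probe sets tested. Cow and period, which the study modelled, are not in the labels and could not be used. Groups came from the sample titles. By the study's methods each array holds the liver of 1 cow in 1 treatment period, so arrays of a group are different cows and the same cows recur between groups. No arrays held identical values.

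The members and lists were chosen with earlier results of these data known. Members were named when their F test p was under 0.05, when they were highest in signal in their family, when they were among the 3 largest 26-array differences of a contrast among members above the median signal, or for known estrogen or progesterone metabolism (19 genes). From the other lists, those with an F test p under 0.05 and the highest by signal were eligible. Signals of different probe sets are not compared with each other. The scripts were tested on simulated data. All 38 symbols matched RefSeq (ARS-UCD2.0 assembly) by gene ID, and this table gave the neighbouring genes. Another 2 probe sets, shared by DDT and GSTT2, carry several symbols and were not used. No sequences are shown. Alternatives changed the scaling, filter, log scale, variance model, array weights, probe set rule, replicate block and the arrays used.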

Additional observations from a re-analysis of the deposited data

Results flagged for a closer look

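In 92 groups of 7 arrays (23 named genes), the highest or lowest array was checked for a gap to its nearest neighbour that is large for the group's range. Chance flags about 1 in 20 groups. There were 32 such cases, each 1 gene in 1 group. Of these, 18 fell on the library labelled E2P4T 5 and 6 on P4T 4.

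In the library labelled E2P4T 5 the outlying log2 signals were 8.73 for AKR1C3, 12.36 for AKR1C4, 11 for CES2, 12 for CYP1A1, 4.36 for CYP1A2, 7.39 for CYP2C23, 5.46 for CYP2C89, 9.3 for CYP2E1 and 9.9 for CYP2U1. They were also 9.89 for CYP3A28, 11.58 for CYP4V2, 9.4 for FMO1, 14.59 for GSTA2, 11.1 for MGST1, 10.65 for SULT1A1, 10.08 for SULT2A1, 10.73 for UGT1A6 and 3.97 for UGT2B10. Each was the lowest of its group.

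In P4T 4 the outlying signals were 18.26 for AKR1C4, the highest of its group, and the lowest values of CYP1A1 (12.34), CYP1A2 (5.88), GSTA2 (14.52), MGST1 (11.18) and UGT1A6 (13.22).

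E2T 3 was the lowest E2T array for CYP1A2 (10.11), CYP2C89 (11.04), MGST1 (13.11) and UGT1A6 (14.1), and E2T 5 the highest for CYP2E1 (16.67). In CO, AKR1C4 was highest on CO 3 (17.8) and CYP4A22 on CO 7 (8.82). CYP4V2 was lowest in P4T on P4T 5 (14.47).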

How the results depend on the processing

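The numbers of members with an unadjusted p under 0.05 were small and moved with the arrays used. They were 0, 0, 2 and 1 for the F test, E2T, P4T and E2P4T with 28 arrays. They stayed so without a filter, on log2 of the signal plus 50, without a variance trend and with a replicate block. Quantile normalization and the probe sets above the median signal each gave 0 throughout; median centring and the mean of a gene's probe sets gave 1 for P4T. With 2 groups in the fit the counts were 1 (E2T) and 1 (P4T). Array weights gave 1, 8, 4 and 5. With 26 arrays they were 0, 2, 5 and 4, with a replicate block added 1, 2, 7 and 4, and with quantile normalization 1, 2, 3 and 2. With 24 arrays, chosen after seeing the data like the fits that leave out arrays from the 26, they were 1, 4, 3 and 4. Leaving out single arrays of the 28 gave 0 to 1, 0 to 1, 0 to 3 and 0 to 2. From the 26, it gave 0 to 5, 1 to 8, 1 to 9 and 1 to 9. The upper ends were without CO 6, and for E2T without E2T 3. No member passed at an adjusted p under 0.05 in any of these fits. The cause was not tested.

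Of 69 log2 fold changes of 23 named genes, 16 changed sign with 26 arrays, 12 of them in E2P4T. A change past the SE in both fits occurred once: CYP3A28 in E2P4T was 0.23 with 26 arrays and quantile normalization. Without single arrays of the 26, UGT1A6 kept its sign in every contrast and p stayed under 0.05 in 17, 24 and 25 of 26 fits. For E2T, p rose above 0.05 without CO 2, CO 3, CO 4 or any single E2T array other than E2T 3. Arrays of P4T and E2P4T do not enter the E2T difference, so the 17 fits overstate its stability. Replication numbers were not shown to pair arrays: 14 of 42 same-number pairs correlated above 0.1, with all 6 pairs of number 6 at 0.12 to 0.32, and 11 of 28 arrays correlated best with their own number. With the block and 26 arrays MGST1 passed in P4T and E2P4T. The number of arrays and the signal over background, for which no detection calls were used here, limit the dim members.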
